A study of Arabidopsis thaliana with 6 samples.

Results

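DFR (AT5G42800), UF3GT (AT5G54060) and AT4G14090 are late genes of anthocyanin synthesis, and their transcript levels were followed in 10-day-old Arabidopsis seedlings. These 3 genes were chosen by their signals in each array, their covariation and their difference between genotypes. The choice was made among late anthocyanin genes with an array probe set that the annotation assigns to a single gene. Probe sequences were not checked. The chosen genes make up 3 of the 13286 genes that could be read in this way. Of a list of 11 late anthocyanin genes, 5 had such a probe set, and the other members of that list were not analysed here. Total RNA of whole seedlings was hybridised to Affymetrix GeneChip arrays, with 3 arrays of wild type (WT, ecotype Columbia) and 3 arrays of an over-expression line in the same ecotype, written 35S::OsHOX24. That line carries the rice homeobox gene OsHOX24 behind the CaMV 35S promoter, which is active in most plant tissues. The paper grew Arabidopsis in pots or on MS plates, with seedlings in a daily cycle of light and dark. It does not say which of these held the array seedlings, and its array methods name no stress. The arrays hold a single transgenic line, so that the effect of the transgene and of its insertion in that line cannot be told apart.

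Anthocyanins are red to purple pigments that Arabidopsis seedlings deposit mainly in the epidermis of the hypocotyl and the cotyledons. Early enzymes of the pathway make dihydroflavonols, which serve flavonols and anthocyanins alike, whereas the late enzymes commit the flow to anthocyanins. DFR encodes dihydroflavonol reductase, the enzyme at that branch. UF3GT is annotated as a flavonoid glucosyltransferase and is known in Arabidopsis to add xylose to anthocyanin glucosides. AT4G14090, which has no symbol in the annotation used here, is known as a glucosyltransferase gene that adds a further sugar to anthocyanins. In seedlings, the late genes are known to be switched on together by a complex of MYB, bHLH and WD40 proteins, and to respond to sugar, light and jasmonate.

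The 3 genes were high in the same arrays of both genotypes. WT replicate 1 and 35S::OsHOX24 replicate 3 held the 2 highest signals of each gene, whereas the genotypes overlapped for every gene. Relative to each gene's own mean over the 6 arrays, the mean of the 3 genes was 1.28 (log2) in WT replicate 1 and 0.93 in 35S::OsHOX24 replicate 3. It was -0.43 and -1.03 in WT replicates 2 and 3, and -0.95 and 0.19 in 35S::OsHOX24 replicates 1 and 2. Each genotype thus held 1 array with clearly higher values and at least 1 with clearly lower values. As the RNA is of whole seedlings, fewer pigmented cells and less RNA per cell cannot be told apart.

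DFR had log2 MAS5 signals of 7.57, 5.37 and 6.15 in WT replicates 1, 2 and 3 and of 4.96, 5.77 and 6.89 in 35S::OsHOX24 replicates 1, 2 and 3. MAS5 signals are scaled per array, and on the linear scale they spanned 31.1 to 190 for this gene, a 6.09-fold range. The highest and the lowest signal both came from the arrays numbered 1, that of WT and that of 35S::OsHOX24. WT had a mean of 6.36 ± 1.12 and 35S::OsHOX24 one of 5.87 ± 0.97 (log2, SD, n = 3 each). The difference between genotypes, 35S::OsHOX24 minus WT, was -0.49 (log2, standard error 0.72) and was smaller than either SD. Here and below, the standard error of a difference is the moderated one of limma. It draws the variance of a probe set towards that of the other probe sets, so it differs from what the printed SDs alone would give. The values of the 3 genes were part of the choice of these genes, and no test of their difference is given.

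UF3GT had log2 signals of 5.80, 4.36 and 2.69 in WT and of 4.44, 5.58 and 5.98 in 35S::OsHOX24, in order of the replicate number. On the linear scale the lowest was 6.46, in WT replicate 3, and the highest 63.0, in 35S::OsHOX24 replicate 3. The lowest array was therefore not the one that was lowest for DFR. WT had a mean of 4.28 ± 1.55, with 5.33 ± 0.80 for 35S::OsHOX24 (log2, SD, n = 3 each). This gave a difference of 1.05 (log2, standard error 0.84), and the SD of the WT arrays was larger than the difference.

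AT4G14090 had log2 signals of 6.40, 4.91 and 4.01 in WT and of 3.66, 5.15 and 5.85 in 35S::OsHOX24. The linear signals ran from 12.7 to 84.3, and here again WT replicate 1 was the highest array and 35S::OsHOX24 replicate 1 the lowest. The means of 5.11 ± 1.21 for WT and 4.89 ± 1.12 for 35S::OsHOX24 (log2, SD, n = 3 each) were close. With a difference of -0.22 (log2, standard error 0.80), the genotypes were closest for this gene.

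**Figure D1:**
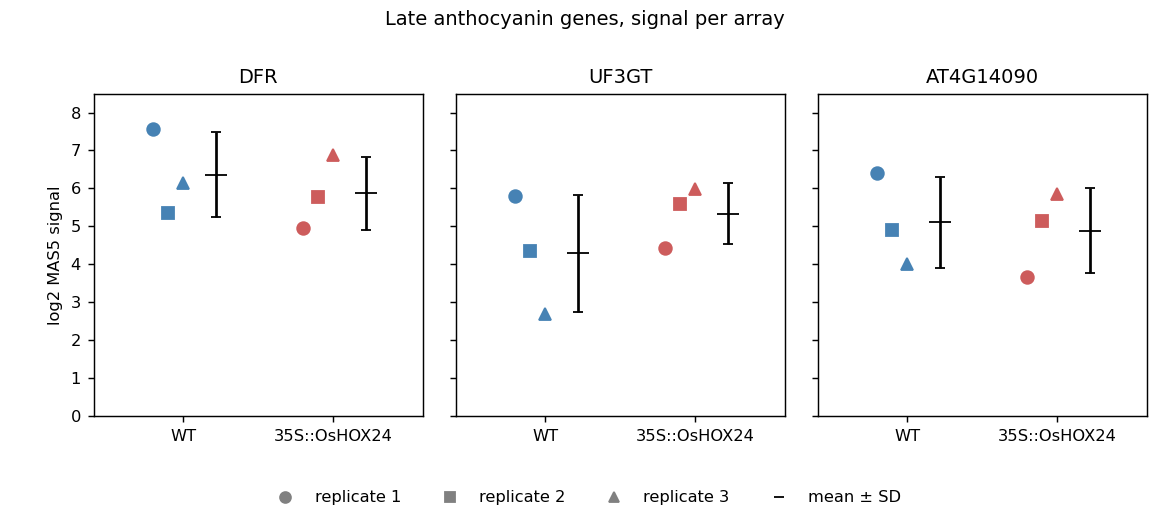
Log2 MAS5 signal of DFR, UF3GT and AT4G14090 in each array, by genotype (blue, WT; red, 35S::OsHOX24); marker shapes give the replicate number, and the bar beside each group is the mean ± SD of 3 arrays. The genotypes overlap for every gene, WT replicate 1 is the highest WT array and 35S::OsHOX24 replicate 3 the highest transgenic array in each panel.

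The pooled SD within genotypes was 1.04 (log2) for DFR, 1.24 for UF3GT and 1.16 for AT4G14090. Among probe sets with a mean signal within 0.5 (log2) of each gene, the median SD was 0.45, 0.66 and 0.62 in the same order. A larger SD than that of the gene was held by 6.06%, 14.3% and 13.8% of them. As the signals in each array were part of the choice of the genes, these SDs and shares are a description. The mean signal of each of the 3 genes was below 7.29 (log2), the median of the mean signals of all probe sets.

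A comparison of WT replicate 1 with 35S::OsHOX24 replicate 1 alone gave DFR and AT4G14090 6.09-fold and 6.65-fold higher in WT. UF3GT was 2.57-fold higher in the same comparison. Within the transgenic line, replicate 3 was above replicate 1 by 3.80-fold for DFR, 2.91-fold for UF3GT and 4.56-fold for AT4G14090. Within WT, replicate 1 was above the mean of the other WT arrays by 1.81 (log2) for DFR, 2.27 for UF3GT and 1.94 for AT4G14090. Differences between arrays of a single genotype were thus larger than the difference between the genotype means for every one of the 3 genes.

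Across the 6 arrays, AT4G14090 followed both other genes, while DFR and UF3GT were less alike. Pearson's r was 0.83 between DFR and AT4G14090 (Spearman's rho 0.83), 0.79 between UF3GT and AT4G14090 (rho 0.77) and 0.46 between DFR and UF3GT (rho 0.54). These values describe 6 arrays of 2 genotypes, and no p is given because covariation was part of the choice of the genes. Of 13280 genes compared, 14.9% had an r with DFR at least as high as that of UF3GT. In turn, 14.6% had an r with UF3GT at least as high as that of DFR. For the pairs with AT4G14090, such shares ran from 1.17% to 2.45%. WT replicate 3 set DFR and UF3GT apart, with a DFR signal in the middle of the range and the lowest UF3GT signal. Without that array, r between DFR and UF3GT was 0.85. With each genotype's mean subtracted from its arrays, r was 0.83 for DFR and AT4G14090, 0.95 for UF3GT and AT4G14090 and 0.68 for DFR and UF3GT.

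The relation between DFR and AT4G14090 was weaker without the replicate 1 arrays, which held the highest and the lowest signal of both genes. Leaving out only that of WT gave an r of 0.68, and leaving out only that of 35S::OsHOX24 gave 0.73. WT replicate 1 and 35S::OsHOX24 replicate 1 were farthest from the median of DFR, and without them r fell to 0.43 over the remaining 4 arrays. Leaving out the arrays farthest from the median of UF3GT, which were WT replicate 3 and 35S::OsHOX24 replicate 3, left r between UF3GT and AT4G14090 at 0.80, and leaving out those farthest for AT4G14090, which were the replicate 1 arrays, gave 0.96. For DFR and UF3GT, r was 0.30 without the arrays farthest for DFR and 0.82 without those farthest for UF3GT.

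**Figure D2:**
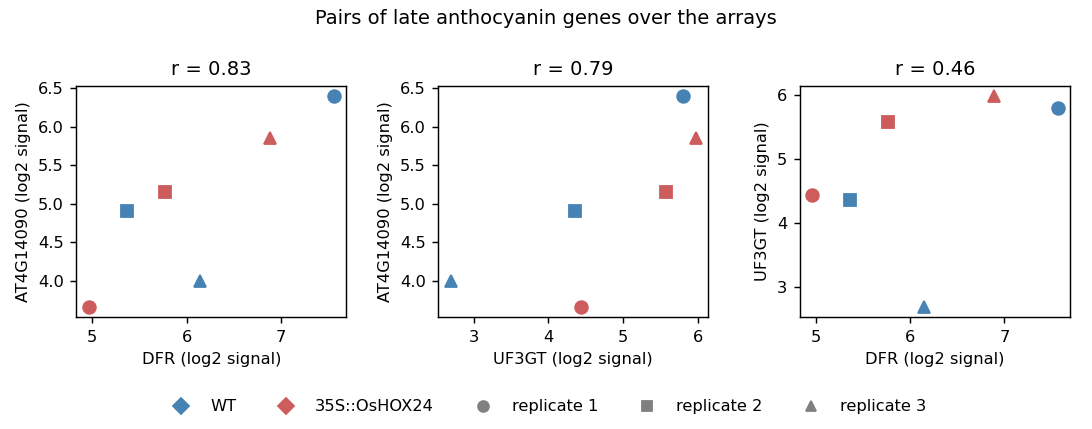
Log2 signals of each pair of genes over the 6 arrays (blue, WT; red, 35S::OsHOX24; marker shapes give the replicate number), with Pearson's r above each panel. Points of both colours lie along the diagonal for DFR and AT4G14090 (r = 0.83) and for UF3GT and AT4G14090 (r = 0.79), whereas WT replicate 3 lies off it for DFR and UF3GT (r = 0.46).

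The direction of the genotype difference depended on single arrays for DFR and AT4G14090. Leaving out WT replicate 1 turned the log2 difference of DFR from -0.49 to 0.12 and that of AT4G14090 from -0.22 to 0.43. Leaving out 35S::OsHOX24 replicate 1 gave -0.03 for DFR and 0.40 for AT4G14090, and leaving out replicate 3 of the transgenic line gave -1.00 and -0.70. UF3GT kept a positive difference without any 1 array, from 0.25 without WT replicate 3 to 1.80 without WT replicate 1. Without replicate 1 of both genotypes, the 3 differences were all positive, 0.57 for DFR, 2.25 for UF3GT and 1.04 for AT4G14090. Quantile normalization and median centring kept every sign. On a log2(signal + 16) scale, which damps low signals, the difference of UF3GT was 0.56.

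**Figure D3:**
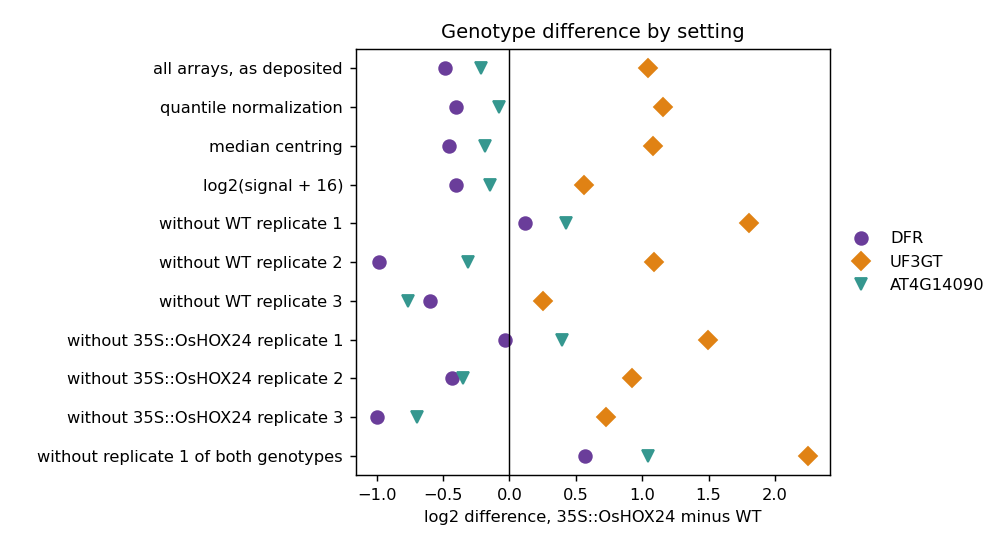
Log2 difference between genotypes (35S::OsHOX24 minus WT, x axis) of DFR, UF3GT and AT4G14090 under each setting (y axis); each point is the difference of the group means. UF3GT lies right of 0 in every setting shown, whereas DFR runs from -1.00 to 0.57 and AT4G14090 from -0.77 to 1.04.

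Of the other genes of the pathway, 92 were listed in 9 groups that cover flavonoids, anthocyanins, proanthocyanidins, phenylpropanoids, lignin and sinapate, activators, repressors and paralogs, and 15 had an own probe set. None of the 15 was at least 2-fold different at an unadjusted p of at most 0.05 with limma, the thresholds that the study used for its arrays, and none passed an adjusted p of 0.05 (limma with Benjamini-Hochberg adjustment). Over all 22746 probe sets tested, 2.53% were past those thresholds, 0.914% as higher and 1.61% as lower in 35S::OsHOX24. At an adjusted p of 0.05, limma and the methods' t-test each called 0 probe sets, and 785 and 798 had an unadjusted p under 0.05. Of the 15 genes, 11 had a positive and 4 a negative difference, with a median of 0.11 (log2) beside -0.03 for all probe sets. The general phenylpropanoid genes and the repressors had no member with an own probe set. The annotation used here left 8730 of the 22746 probe sets without a name, so genes of these lists may have probe sets that were not named.

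Of the late list, UGT78D2 and AT5MAT could be read besides the 3 genes. UGT78D2 adds the first glucose to flavonols and anthocyanidins. Its log2 signals were 8.82 and 8.28 in WT replicates 2 and 3 and 7.94, 8.35 and 9.30 in 35S::OsHOX24, with 8.70 in WT replicate 1. Its difference between genotypes was -0.07 (log2, standard error 0.40), and r with the mean of the 3 genes was 0.69. AT5MAT encodes a malonyltransferase of anthocyanins, and its signal was lowest in WT replicate 1, at 1.58 (log2), where the 3 genes were highest together. Its other signals were 4.15 and 4.39 in WT and 3.40, 4.97 and 4.87 in the transgenic line, which gave a difference of 1.04 (standard error 0.86) and r = -0.32 with the mean of the 3 genes. WT replicate 1 and 35S::OsHOX24 replicate 3 were the arrays farthest from the median of that mean. Without them, r was 0.73 for AT5MAT and 0.42 for UGT78D2.

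Among flavonol genes, UGT78D1, which adds rhamnose to flavonols, and AT1G06000, listed with flavonol glycosylation, were highest in 35S::OsHOX24 replicate 3. UGT78D1 had log2 signals of 8.38, 8.44 and 7.84 in WT and of 7.72, 8.13 and 9.09 in the transgenic line. AT1G06000 had 8.20, 8.82 and 7.37 in WT and 7.86, 8.00 and 9.13 in the transgenic line. CHIL, a chalcone isomerase-like protein that acts early in the pathway, had 8.26, 9.58 and 7.59 in WT and 8.57, 7.72 and 9.82 in 35S::OsHOX24. WT replicate 2 was the highest WT array for all of these 3 flavonoid genes and for UGT78D2, unlike for DFR, UF3GT and AT4G14090. The ranks of UGT78D1 and UGT78D2 were the same over the 6 arrays (r = 0.98, rho = 1.0), and r was 0.90 between UGT78D1 and AT1G06000. The r with AT4G14090 was 0.77 for UGT78D1, 0.75 for UGT78D2, 0.59 for AT1G06000 and 0.28 for CHIL. In the same order, r was 0.56, 0.59, 0.22 and 0.00 with DFR, and 0.65, 0.52, 0.63 and 0.36 with UF3GT. Without the arrays farthest for UF3GT, r with UF3GT was 0.31, 0.22, -0.34 and -0.78. The replicate 1 arrays were farthest for both AT4G14090 and DFR. Without them, r was 0.90, 0.80, 0.85 and 0.67 with AT4G14090, and 0.55, 0.52, 0.22 and 0.22 with DFR. These pairs were noticed in the data and carry no test.

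The GAPDH control has probe sets at either end of its transcript, and the difference between the 3' and the 5' signal, which is larger where fewer 5' ends are left in the RNA, was lowest in WT replicate 2 (1.63, log2) and 35S::OsHOX24 replicate 3 (2.39) and highest in WT replicate 3 (4.80). The other arrays had 3.25 in WT replicate 1 and 3.29 and 3.63 in replicates 1 and 2 of the transgenic line. WT replicate 3 also had the lowest UF3GT signal, whereas DFR and AT4G14090 were lowest in 35S::OsHOX24 replicate 1. Across the 6 arrays, r of the GAPDH difference was -0.32 with the mean of the 3 late genes and -0.85 with the mean of UGT78D1, UGT78D2, AT1G06000 and CHIL. The 15 poly-A spike-in control probe sets had a mean of 6.28 (log2) in 35S::OsHOX24 replicate 3 against 7.52 to 8.46 elsewhere. With the mean of the 3 late genes, r was -0.57 for the spike-in mean and 0.71 for the median signal of the array. The part of RNA integrity, of the spike-in level or of the array median in the signals of these genes was not tested.

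UGT78D3, which adds arabinose to flavonols, was the pathway gene with no overlap between genotypes, an occurrence that held for 7.17% of all probe sets. Its log2 signals were 2.26, 2.02 and 2.1 in WT and 1.17, 1.48 and 1.08 in 35S::OsHOX24, near the bottom of the scale. The log2 difference was -0.88 (standard error 0.23), and its adjusted p was 1.0 with limma. Among the remaining genes, BAN, the anthocyanidin reductase of seed coat tannins, stayed between 1.19 and 2.50 (log2) in all arrays. HYH, a bZIP factor of light signalling and the sole listed activator with an own probe set, had a difference of 0.47 (standard error 0.58). It was lowest in WT replicate 1, at 5.34, and r with the mean of the 3 genes was -0.22. Leaving out WT replicate 1 and 35S::OsHOX24 replicate 3 gave an r of 0.73 for HYH. Of the lignin and sinapate branch, HCT, CCR2, UGT84A1 and ALDH2C4 had differences of 0.11, -0.31, 1.11 and 0.07. UGT84A1 ranged from 2.70 in WT replicate 1 to 6.88 in 35S::OsHOX24 replicate 3, so that it has no direction beyond its spread (standard error 1.01).

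Paralogs of the glycosyltransferases had low or negative r with the 3 genes. AT5G54010, also named UGT79B6, and AT5G53990 lie near UF3GT, with 8 and 10 annotated genes between. Their r with UF3GT was -0.41 and -0.28, but the signals of both were low in all arrays, which limits what these r can show. AT5G54010 had log2 signals of 1.94, 2.03 and 4.46 in WT and of 3.86, 4.64 and 2.71 in 35S::OsHOX24, a difference of 0.93 (standard error 0.83). AT5G53990 had 3.24, 4.06 and 2.58 in WT and 4.23, 1.07 and 2.36 in the transgenic line, a difference of -0.74 (standard error 0.85). Each passed the study's thresholds when 1 array was left out, AT5G54010 without WT replicate 3 and AT5G53990 without 35S::OsHOX24 replicate 1. IAGLU, an auxin glucosyltransferase related to AT4G14090, had a difference of 0.04 (standard error 0.43) and an r of 0.11 with AT4G14090.

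Genes beside the 3 late genes on the chromosome also had low r with them. AT5G54050, the gene next to UF3GT, had an r of -0.23 with UF3GT and was listed at 0 in 35S::OsHOX24 replicate 3, where UF3GT was highest. The mean signal of AT5G54050 was low, at 2.94 (log2), which limits what its r can show. AT4G14100, whose annotated ends overlap those of AT4G14090, had an r of 0.23 with it and a range of 0.97 (log2) over the arrays, against 2.73 for AT4G14090. U2AF35B, a splicing factor subunit with 1 gene between it and DFR, had an r of 0.00 with DFR. It ranged over 0.81 (log2).

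A search over the array gave the genes whose pattern was most like the mean of the 3 late genes. It covered the 1947 genes whose mean signal exceeded the array-wide median and whose range over the arrays was at least 1 (log2), and likeness was Pearson's r over the 6 arrays. An r of at least 0.9 was reached by 5 genes, or 0.257% of them, and the median r of all 1947 was 0.04. The genes named from this search are the extremes of 1947 correlations over 6 arrays, and their likeness was not tested. AT1G52000 was the most alike, with r = 0.96 and log2 signals of 10.30, 9.31 and 8.34 in WT and of 8.79, 9.86 and 10.36 in 35S::OsHOX24. Its r was 0.95 with UF3GT, 0.93 with AT4G14090 and 0.66 with DFR. It was 0.97 without WT replicate 1 and 35S::OsHOX24 replicate 3, the arrays farthest from the median of the mean profile. The other genes above 0.9 were UGT76B1, a glucosyltransferase known to act on isoleucic acid and salicylic acid, SCPL49, a serine carboxypeptidase-like protein, AT4G30020 and AT5G12890. Without the same arrays, r fell to 0.45 for UGT76B1, 0.62 for SCPL49 and 0.43 for AT4G30020, and stayed at 0.83 for AT5G12890.

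Next in likeness came AT3G28220, PDF1.2, AT5G38020, PDF1.2b and AT2G05260, with r from 0.81 to 0.85. Without WT replicate 1 and 35S::OsHOX24 replicate 3, their r ran from 0.47 for AT5G38020 to 0.99 for AT2G05260. AT3G28220 had the widest range of the 10, 4.44 (log2), with signals of 10.91, 7.50 and 6.47 in WT and of 9.14, 9.37 and 10.62 in 35S::OsHOX24. PDF1.2 and PDF1.2b encode plant defensins that are known as markers of jasmonate and ethylene responses. PDF1.2 had log2 signals of 8.21, 6.72 and 7.07 in WT and of 6.71, 7.88 and 7.49 in the transgenic line, and PDF1.2b had 8.79, 6.76 and 7.27 in WT and 5.42, 7.96 and 7.85 in the transgenic line. The probe set of PDF1.2b is of a kind marked as cross-hybridizing, so its signal may include that of PDF1.2. PDF1.2b was more like DFR (r = 0.87) than UF3GT (r = 0.50), whereas AT3G28220 was more like UF3GT (r = 0.93) than DFR (r = 0.57). None of the 10 genes was past the study's thresholds between genotypes, with log2 differences from -0.53 to 1.42.

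**Figure D4:**
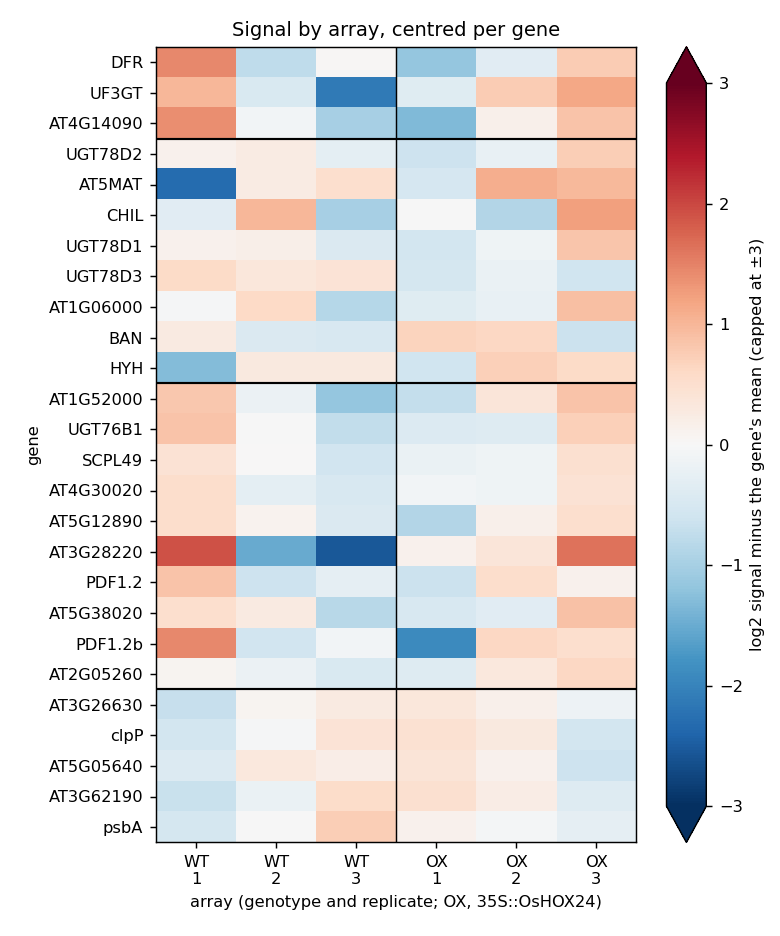
Log2 signal of each gene minus its mean over the 6 arrays (colour, scale to ±3), with arrays as columns (3 of WT, 3 of 35S::OsHOX24, written OX) and genes as rows in 4 blocks, which are the 3 late genes, other genes of the flavonoid pathway, the 10 genes most like the 3 and the 5 most opposite. WT replicate 1 and 35S::OsHOX24 replicate 3 lie above the gene's mean (red) in the first block and in the genes most alike, and below it (blue) in the last block, whereas AT5MAT and HYH are blue in WT replicate 1.

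Opposite to the 3 genes were AT3G26630, clpP, AT5G05640, AT3G62190 and psbA, with r from -0.89 to -0.88. Without WT replicate 1 and 35S::OsHOX24 replicate 3, r ran from -0.73 for AT3G26630 to -0.40 for clpP. The genes clpP, for a protease subunit, and psbA, for a photosystem II protein, are encoded in the plastid. The log2 signals of psbA were 11.08, 11.58 and 12.33 in WT and 11.73, 11.53 and 11.33 in 35S::OsHOX24, the exact reverse of the order of the mean profile (rho = -1.0). Of the 6 markers of green tissue, RCA, the nuclear gene of Rubisco activase, could be read. It was lowest in WT replicate 1 (14.28, log2) and had 14.40 and 14.69 in the other WT arrays and 14.74, 14.50 and 14.37 in 35S::OsHOX24, with r = -0.88 to the mean of the 3 genes. RCA signals are at the top of the scale and differed by 0.46 (log2) at most. Of 6 root markers, EXPA7, an expansin of root hairs, was read at 2.86 to 5.47, with r = -0.10. No seed reserve marker had an own probe set. The part of tissue composition in the pattern of the late genes was not tested.

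Of the high light and cold genes, 4 had an own probe set, with r from 0.06 to 0.34 to the mean of the 3 late genes. COR15A, a chloroplast protein induced by cold, had log2 signals of 10.84 in WT replicate 1 and 9.67 in 35S::OsHOX24 replicate 1, and of 5.20 to 6.86 in the other 4 arrays. COR15B likewise had 11.15 and 10.58 in the replicate 1 arrays and 6.23 to 7.64 elsewhere. The replicate 1 arrays of both genotypes were thus together for the COR15 genes and at opposite ends for DFR and AT4G14090. COR47 and LTI30, which encode dehydrins, did not share that split and were highest in WT replicate 2 (12.42 and 10.88, log2) and 35S::OsHOX24 replicate 3 (12.36 and 10.47). Of the sugar-responsive genes, APL3, an ADP-glucose pyrophosphorylase subunit, was also highest in the replicate 1 arrays, at 7.16 and 6.96, and had an r of 0.15 with the mean of the 3 genes. The phosphate starvation genes had no member with an own probe set.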

How the data were processed

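The authors computed the signals with MAS5 and deposited them as log2 values in 1 table. Its version is not given in the sources used here. Each array had been scaled, with a 2% trimmed mean of the linear signals of 500.05 to 500.06, array medians of 7.24 to 7.42 (log2) and 163 to 511 probe sets listed at 0. Detection calls were not used here. From these values, 22746 probe sets were compared with limma 3.58.1 in R 4.3.3 after leaving out 64 control probe sets. There was no further normalization, filter or covariate. The platform table and RefSeq (TAIR10.1) named 13436 of the 13513 single-gene probe sets, 503 had several genes and 8730 were not named. The probe set of highest mean stood for a gene that had several.

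The members, gene lists and tests were chosen with earlier results of these data known. Named genes were the 3 members, the measured pathway and paralog genes, up to 4 genes of each other list by signal, and the 10 most and 5 least alike genes by r. AT5G54050, AT4G14100 and U2AF35B were added as neighbours. The scripts were tested on simulated data. The alternatives were quantile normalization, median centring, log2(signal + 16), a variance trend, the methods' t-test, a filter at the 40th percentile of signal, the replicate number as a block and leaving out arrays. The paper describes the arrays of a genotype as independent biological replicates. The number of arrays limits the precision.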

Additional observations from a re-analysis of the deposited data

How the results depend on the processing

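With limma, the transgenic line had 208 probe sets higher and 367 lower at the study's thresholds. With log2(signal + 16) the counts were 29 and 85, with the methods' t-test 112 and 180, and above the 40th percentile of signal, where fewer probe sets are tested, 17 and 40. Without replicate 1 of both genotypes they were 324 and 405. Quantile normalization gave 264 and 303, which moves the split towards the higher side. Without 1 array at a time they ranged from 220 to 316 higher (316 without WT replicate 1) and from 347 to 494 lower. Pathway genes past the thresholds numbered 0 to 1 in these fits. They were AT5G54010 without WT replicate 3, AT5G53990 without 35S::OsHOX24 replicate 1 and UGT78D3 without 35S::OsHOX24 replicate 2. No setting gave a probe set with an adjusted p under 0.05.

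The log2 difference ranged from -1.00 to 0.12 for DFR, from 0.25 to 1.80 for UF3GT and from -0.77 to 0.43 for AT4G14090 without 1 array at a time. Without replicate 1 of both genotypes, DFR and AT4G14090 moved to 0.57 and 1.04. Without 1 array at a time, r ranged from 0.27 to 0.85 for DFR and UF3GT, from 0.68 to 0.94 for DFR and AT4G14090, and from 0.74 to 0.90 for UF3GT and AT4G14090. With genotype means subtracted, the last r was 0.95. The cause of these shifts was not tested. Of the 10 most alike genes, 9 were also among the 10 most alike when each late gene was scaled by its SD, and 6 with genotype means subtracted, both chosen after seeing the data.

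Deviations from the group means over all probe sets correlated at 0.11, -0.20 and -0.18 between arrays of the same replicate number. Between arrays of different numbers the correlations ran from -0.12 to 0.29. Whether arrays of the same number were prepared together is not in the labels and was not tested. With the replicate block, 259 probe sets were higher and 419 lower, and the differences of the 3 late genes were the same by construction.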
